A study of Mus musculus with 15 samples.

Results

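Transcripts of 10 genes that carry sugars, peptides and amino acids across the cells of the gut lining were measured by RNA-seq in mouse distal jejunum. The members were chosen by name from the table of normalised counts: Slc5a1, Slc2a5 and Slc2a2 for sugars, Slc15a1 for peptides, and Slc6a19, Slc6a20a, Slc7a9, Slc3a1, Slc1a1 and Slc7a7 for amino acids. They are 10 of 26844 genes in that table, and all 10 were among the 14299 genes with enough reads to be tested. The mice were male C57BL/6 animals aged 13 to 15 weeks, and they were either global knockouts of both Aster-B and Aster-C (KO) or wild type (WT). Aster proteins, which the Gramd1 genes encode, take cholesterol that reaches the plasma membrane and deliver it to the endoplasmic reticulum. Both genotypes ate a diet with 0.08% cholesterol, either with 0.01% ezetimibe, which blocks the intestinal cholesterol importer NPC1L1, or without it (control diet). There were 4 libraries from KO mice on ezetimibe, 4 from WT mice on ezetimibe, 3 from KO mice on the control diet and 4 from WT mice on the control diet.

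Absorptive cells of the villus, the enterocytes, take up sugars, short peptides and amino acids through carriers in their brush border and pass them to the blood through other carriers in the basolateral membrane. Uptake of glucose by SLC5A1 is driven by sodium, uptake of peptides by SLC15A1 is driven by protons, and amino acid carriers are divided by the charge and size of what they carry. Some carriers work only in pairs, a light chain that transports and a heavy chain that brings it to the membrane. SLC7A9 with SLC3A1 is such a pair in the brush border, where it takes up cystine and dibasic amino acids.

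No member passed the test in any comparison between genotypes or diets. What the members share is therefore shown by their levels and by how they vary from library to library. Slc3a1, Slc7a9 and Slc1a1 are the members whose variation the results turn on, since Slc3a1 and Slc7a9 varied most closely together and Slc1a1 varied against both. Their promoters are shown from RefSeq (GRCm38.p6, the assembly also called mm10), each as 250 bases before and 50 bases after the annotated start, 5′ to 3′ on the gene's strand. For Slc7a9 the promoter is that of the first of its annotated starts. Capitals mark letters that match motifs of transcription factors that are active in enterocytes, searched on both strands: GTTAAT for HNF1, CAAAG for the core of HNF4 sites, TTTATG for CDX and AGATAA for GATA.
Slc3a1, chr17:85028097-85028396: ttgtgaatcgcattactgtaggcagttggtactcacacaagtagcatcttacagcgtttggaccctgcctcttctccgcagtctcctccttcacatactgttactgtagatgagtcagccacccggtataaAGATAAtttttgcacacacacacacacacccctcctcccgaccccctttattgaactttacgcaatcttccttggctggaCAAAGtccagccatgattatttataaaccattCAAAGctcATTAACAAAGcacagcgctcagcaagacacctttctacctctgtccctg
Slc7a9, chr7:35448842-35449141: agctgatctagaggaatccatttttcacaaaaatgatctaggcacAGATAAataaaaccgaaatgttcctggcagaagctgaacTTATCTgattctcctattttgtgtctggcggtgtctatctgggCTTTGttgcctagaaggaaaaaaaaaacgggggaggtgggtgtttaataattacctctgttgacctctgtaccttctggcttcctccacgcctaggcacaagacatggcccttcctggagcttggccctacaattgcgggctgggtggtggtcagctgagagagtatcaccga
Slc1a1, chr19:28834885-28835184: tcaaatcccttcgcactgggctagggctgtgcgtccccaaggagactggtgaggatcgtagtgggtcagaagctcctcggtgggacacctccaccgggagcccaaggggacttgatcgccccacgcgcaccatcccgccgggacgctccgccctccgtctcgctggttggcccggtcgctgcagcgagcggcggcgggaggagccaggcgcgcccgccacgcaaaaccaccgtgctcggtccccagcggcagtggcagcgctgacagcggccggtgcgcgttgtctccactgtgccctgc
The Slc3a1 promoter held the HNF1, HNF4 and GATA letters, and near the start the HNF1 match overlaps an HNF4 match by its last base. The Slc7a9 promoter held the GATA letters and the HNF4 letters. The Slc1a1 promoter held none of the 4 motifs, and neither did the promoters of Slc2a5 and Slc6a19. Across the first annotated starts of the 10 members, the HNF1 letters were in 2, the HNF4 letters in 6, the CDX letters in 0 and the GATA letters in 2. Among 32851 RefSeq promoters of the same length the shares were 7.10% for HNF1, 53.9% for HNF4, 11.9% for CDX and 11.2% for GATA. A match describes the letters of this window and does not show binding.

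Library depth ran from 13855034 to 19307079 reads, as recovered from the normalised counts. Gramd1c, which encodes Aster-C, had 71.8 to 156 normalised counts in KO mice on ezetimibe and 115 to 194 in KO mice on the control diet, against 1102 to 1394 in WT mice on ezetimibe and 1059 to 1845 in WT mice on the control diet. Gramd1b, which encodes Aster-B, had 962 to 2086 normalised counts in the KO libraries and 2274 to 4046 in the WT libraries. All 12 brush border and enterocyte markers were detected in every library. Lct, which encodes the brush border enzyme lactase, had 20088 to 43437 normalised counts, and Fabp6, a bile acid binding protein of the ileum, had 47.4 to 2535. The highest Fabp6 value was in replicate 3 of the KO mice on ezetimibe, and that library also lay at one end of the first principal component of all genes, which held 27.7% of the variance. Replicate 4 of the WT mice on the control diet lay at the other end.

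Levels differed more between members than within any of them. Divided by exon length, Slc5a1 was the most abundant member, with a mean of 11776 normalised counts per kilobase over the 15 libraries, a level exceeded by few genes (rank 53 of 14294). Slc6a19 averaged 5458 normalised counts per kilobase, Slc3a1 2985, Slc15a1 2853, Slc7a7 1997, Slc7a9 1864, Slc2a2 1711, Slc2a5 973 and Slc6a20a 410. Slc1a1 averaged 48.3 normalised counts per kilobase, close to the median of 49.3 over all genes tested. In that order, Slc5a1 stood above Slc6a19, Slc2a2 above Slc2a5 and Slc6a20a above Slc1a1 with no overlap of their ranges over the libraries, while the other neighbours overlapped. Slc3a1 was above Slc15a1, Slc7a7 above Slc7a9 and Slc7a9 above Slc2a2 in only 10 of 15 libraries each, and their order is not resolved by these levels. The fewest recovered reads in any library were 36183 for Slc5a1, and 196 for Slc1a1.

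**Figure D1:**
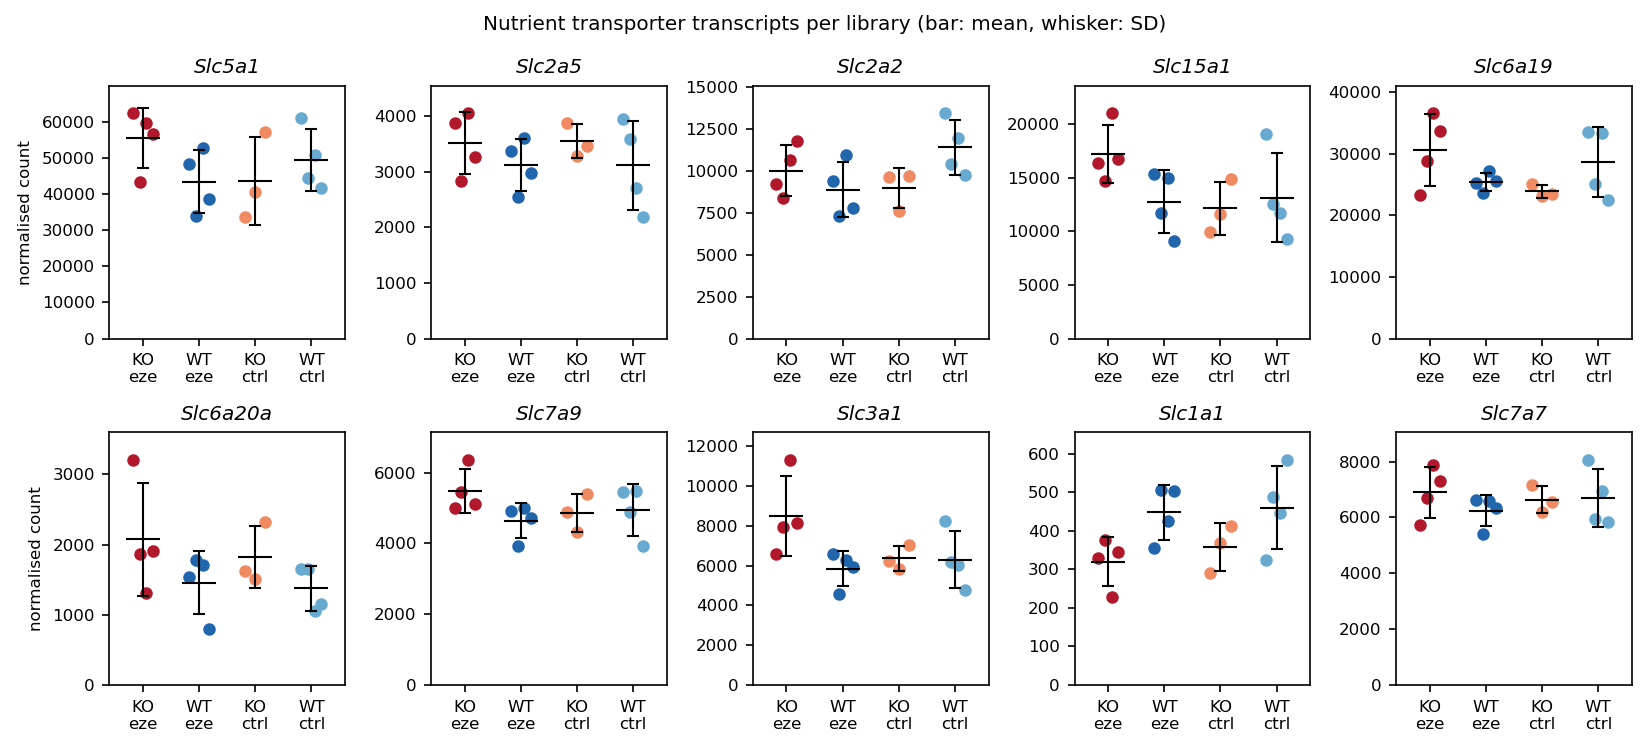
Normalised count (vertical axis, starting at 0) of each of the 10 transporters in every library, by genotype and diet (KO eze, WT eze, KO ctrl, WT ctrl), with 1 point per library, a bar at the group mean and a whisker of 1 SD. Groups overlap in nearly every panel. The 3 KO libraries on the control diet are below all 4 WT libraries on that diet for Slc2a2, Slc1a1 averages 320 in KO and 448 in WT mice on ezetimibe, and Slc3a1 reaches 11330 in 1 KO library on ezetimibe.

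Among the sugar carriers, Slc5a1 encodes SGLT1, the sodium-coupled carrier that takes up glucose and galactose at the brush border (chromosome 5, 33104219 to 33162870, GENCODE M21 on GRCm38). Slc5a1 had 62420, 43391, 59708 and 56565 normalised counts in the KO mice on ezetimibe, against 48397, 33977, 52774 and 38725 in the WT mice on ezetimibe. It had, on the control diet, 33509, 40491 and 57217 normalised counts in the KO mice and 60966, 44330, 50730 and 41720 in the WT mice. The groups overlapped in every comparison. The log2 fold change of KO over WT was 0.36 on ezetimibe (SE 0.19, limma adjusted p = 0.337), where KO mice averaged 55521 ± 8433 and WT mice 43468 ± 8630 (SD, n = 4 each). On the control diet KO over WT was at -0.20 with an SE of 0.21, and the adjusted p by limma was 0.715.

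Slc2a5 encodes GLUT5, the fructose carrier of the brush border (chromosome 4, 150119283 to 150144169). It averaged 3513 ± 561 normalised counts in KO mice on ezetimibe, 3125 ± 470 in WT mice on ezetimibe (SD, n = 4 each), 3548 ± 305 in KO mice on the control diet (SD, n = 3) and 3114 ± 808 in WT mice on the control diet (SD, n = 4). The log2 fold change of KO over WT was 0.17 on ezetimibe and 0.22 on the control diet. Neither passed the test (limma adjusted p of 0.609 on ezetimibe and 0.620 on the control diet). Ezetimibe over control diet gave log2 fold changes of -0.02 in KO and 0.03 in WT mice.

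Slc2a2 encodes GLUT2, which passes glucose and fructose through the basolateral membrane (chromosome 3, 28697903 to 28731359). On the control diet Slc2a2 had 9599, 7568 and 9664 normalised counts in the KO mice, against 13426, 10393, 11968 and 9721 in the WT mice. All 3 KO libraries were below all 4 WT libraries, the nearest pair being 9664 and 9721. Slc2a2 was the 1 member of 10 whose groups did not overlap in this comparison, and 5.57% of all genes tested were lower in every KO library (12.2% did not overlap in either direction). The log2 fold change of KO over WT was -0.34 (95% interval -0.69 to -0.0026), and it was not called (limma adjusted p = 0.336, unadjusted p = 0.0485). On ezetimibe it had 9201, 8340, 10650 and 11741 normalised counts in the KO mice and 9397, 7319, 10903 and 7777 in the WT mice, and these groups overlapped. In WT mice the log2 fold change of ezetimibe over control diet was -0.37 (limma adjusted p = 0.834), with 8849 ± 1634 normalised counts on ezetimibe and 11377 ± 1659 on the control diet (SD, n = 4 each). In KO mice the same log2 fold change was 0.16 (limma adjusted p = 0.593). Whether the effect of genotype differed between diets was tested directly, and the difference, 0.52 on the log2 scale (95% interval 0.06 to 0.99), was not called (limma adjusted p = 0.681).

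The peptide carrier is Slc15a1, which encodes PEPT1 and takes up dipeptides and tripeptides with protons (chromosome 14, 121459621 to 121505252). It had 16381, 14745, 21042 and 16743 normalised counts in the KO mice on ezetimibe, against 15338, 11718, 14941 and 9069 in the WT mice on ezetimibe. KO mice on the control diet had 9971, 11627 and 14847 normalised counts, and WT mice on that diet had 19040, 12572, 11684 and 9329. The KO libraries on ezetimibe had the highest mean, but 1 KO library on the control diet, at 14847, exceeded the lowest of them, at 14745. WT libraries exceeded that lowest value too, at 15338 and 14941 on ezetimibe and at 19040 on the control diet. Ezetimibe over control diet in KO mice gave a log2 fold change of 0.51 (95% interval 0.03 to 0.99), with 17228 ± 2687 normalised counts on ezetimibe (SD, n = 4) and 12149 ± 2480 on the control diet (SD, n = 3), and it was not called (limma adjusted p = 0.194). In WT mice the same log2 fold change was -0.02 (limma adjusted p = 0.999). KO over WT on ezetimibe gave 0.45 (limma adjusted p = 0.302), and without replicate 3 of the KO mice on ezetimibe 0.35 (limma adjusted p = 0.549).

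Of the amino acid carriers in the brush border, Slc6a19 takes up neutral amino acids with sodium (chromosome 13, 73679745 to 73704865). It had 23236, 28759, 36577 and 33624 normalised counts in the KO mice on ezetimibe, against 25260, 23601, 27184 and 25569 in the WT mice on ezetimibe. The 3 KO libraries on the control diet had 25015, 23106 and 23466 normalised counts, and the 4 WT libraries on it had 33556, 25039, 33314 and 22549. The lowest and the highest KO library on ezetimibe enclosed the whole WT group. KO over WT was 0.25 on the log2 scale on ezetimibe (limma adjusted p = 0.396) and -0.24 on the control diet (limma adjusted p = 0.539). The difference between these effects, 0.49 (95% interval 0.01 to 0.96), was not called (limma adjusted p = 0.681).

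Slc6a20a, which takes up proline and related imino acids, was the most variable member (chromosome 9, 123634770 to 123678885). It had 3210, 1863, 1305 and 1910 normalised counts in the KO mice on ezetimibe, against 1543, 1779, 1709 and 798 in the WT mice on ezetimibe. Without ezetimibe it had 1617, 1514 and 2325 normalised counts in the KO mice and 1659, 1652, 1056 and 1151 in the WT mice. Its highest library was replicate 1 of the KO mice on ezetimibe, 4.02 times its lowest. KO over WT was 0.50 on the log2 scale on ezetimibe (SE 0.28, limma adjusted p = 0.353) and 0.40 on the control diet (SE 0.30, limma adjusted p = 0.578). Its residual SD was 0.46 on the log2 scale, against 0.26 for the median gene. Its paralog Slc6a20b was low, with a mean of 42.5 normalised counts, and reads shared between these near copies cannot be told apart here. The exons of Slc6a20a share 563 bases, 13.8% of their length, with Gm17120 on the opposite strand, whose mean was 18.9 normalised counts. The part of those shared bases in the Slc6a20a values was not tested.

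The heavy chain Slc3a1 and its light chain Slc7a9 form the cystine and dibasic amino acid carrier, and mutations in either cause cystinuria in humans. Slc3a1 (chromosome 17, 85028376 to 85064236) had 6574, 7926, 11330 and 8153 normalised counts in the KO mice on ezetimibe, against 6581, 4590, 6266 and 5940 in the WT mice on ezetimibe. Only the lowest KO library fell below the highest WT library, 6574 against 6581, so the groups overlapped by a single pair. KO over WT gave a log2 fold change of 0.52 (95% interval 0.15 to 0.90), with 8496 ± 2014 in KO and 5844 ± 876 in WT mice (SD, n = 4 each). It had the smallest p of the members in this comparison but was not called (limma adjusted p = 0.236, unadjusted p = 0.00868). Without replicate 3 of the KO mice on ezetimibe the log2 fold change was 0.38 (limma adjusted p = 0.432).

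On the control diet Slc3a1 had 6209, 5833 and 7060 normalised counts in the KO mice and 8260, 6165, 6020 and 4778 in the WT mice, where the KO libraries lay within the WT range. The log2 fold change was 0.04 (SE 0.19, limma adjusted p = 0.956). Ezetimibe over control diet gave 0.39 in KO mice (limma adjusted p = 0.229) and -0.10 in WT mice (limma adjusted p = 0.999). The exons of Slc3a1 share 601 bases, 26.5% of their length, with Prepl on the opposite strand. Prepl had a mean of 1573 normalised counts, against 6779 for Slc3a1. The sources used here do not say whether counting used strand, so reads from the shared bases could belong to either gene. The part of those shared bases in the Slc3a1 values was not tested.

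Slc7a9 (chromosome 7, 35448796 to 35466036) had 4995, 5459, 6368 and 5114 normalised counts in the KO mice on ezetimibe, against 4916, 3913, 4991 and 4712 in the WT mice on ezetimibe. In normalised counts all 4 KO libraries were above all 4 WT libraries, the nearest pair being 4995 and 4991. This depended on scaling, and as shares of library totals the groups overlapped. The KO library at 4995 held 4664 of 14942122 recovered reads, a smaller share than the 4655 of 14364477 in the WT library at 4916. By normalised counts Slc7a9 was the 1 member without overlap in this comparison. On that scale 5.09% of all genes tested were higher in every KO library (9.93% did not overlap in either direction). The log2 fold change of 0.24 (95% interval -0.02 to 0.50) was not called (limma adjusted p = 0.322). On the control diet it had 4873, 4332 and 5401 normalised counts in the KO mice and 5460, 4893, 5469 and 3920 in the WT mice, a log2 fold change of -0.01 (limma adjusted p = 0.981). Per kilobase, the ratio of the light chain Slc7a9 to the heavy chain Slc3a1 was 0.477 to 0.645 in KO mice on ezetimibe, 0.634 to 0.723 in WT mice on ezetimibe, 0.630 to 0.666 in KO mice on the control diet and 0.561 to 0.771 in WT mice on the control diet. The lowest ratio was in the KO mice on ezetimibe, and the ranges of all groups overlapped.

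Slc1a1 encodes a carrier of glutamate, aspartate and cysteine (chromosome 19, 28835049 to 28913960), and it was the member that ran against the others. It had 330, 377, 229 and 344 normalised counts in the KO mice on ezetimibe, against 356, 507, 424 and 503 in the WT mice on ezetimibe. The 3 lowest of these 8 values were from KO mice and the 3 highest from WT mice. KO over WT gave a log2 fold change of -0.49 (95% interval -0.90 to -0.09), with 320 ± 64.0 in KO and 448 ± 72.1 in WT mice (SD, n = 4 each), and it was not called (limma adjusted p = 0.256, unadjusted p = 0.0201). Without replicate 3 of the KO mice on ezetimibe, the lowest library, it was -0.34 (limma adjusted p = 0.497).

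On the control diet Slc1a1 had 291, 367 and 414 normalised counts in the KO mice and 324, 487, 446 and 585 in the WT mice, with overlapping groups and a log2 fold change of -0.35 (limma adjusted p = 0.460). The exons of Slc1a1 share 2631 bases, 31.9% of their length, with 4430402I18Rik on the opposite strand, whose own mean was 22.1 normalised counts. The part of those shared bases in the Slc1a1 values was not tested.

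In the basolateral membrane, Slc7a7 is the light chain that releases dibasic amino acids towards the blood in exchange for neutral ones, paired with the heavy chain Slc3a2 (chromosome 14, 54369442 to 54417780). It was the steadiest member, with a residual SD of 0.17 on the log2 scale. It had 5733, 6710, 7861 and 7318 normalised counts in the KO mice on ezetimibe, against 6619, 5414, 6587 and 6336 in the WT mice on ezetimibe. Without the drug it had 7144, 6199 and 6543 normalised counts in the KO mice and 8070, 5957, 6946 and 5848 in the WT mice. The groups overlapped on both diets. The log2 fold change of KO over WT was 0.14 on ezetimibe (95% interval -0.11 to 0.40, limma adjusted p = 0.537) and -0.01 on the control diet (95% interval -0.28 to 0.27, limma adjusted p = 0.990). Slc3a2 had a log2 fold change of -0.19 on ezetimibe (limma adjusted p = 0.389) and 0.02 on the control diet (limma adjusted p = 0.970). The exons of Slc7a7 share 232 bases, 7.00% of their length, with Oxa1l on the opposite strand, whose mean was 464 normalised counts. The part of those shared bases in the Slc7a7 values was not tested.

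**Figure D2:**
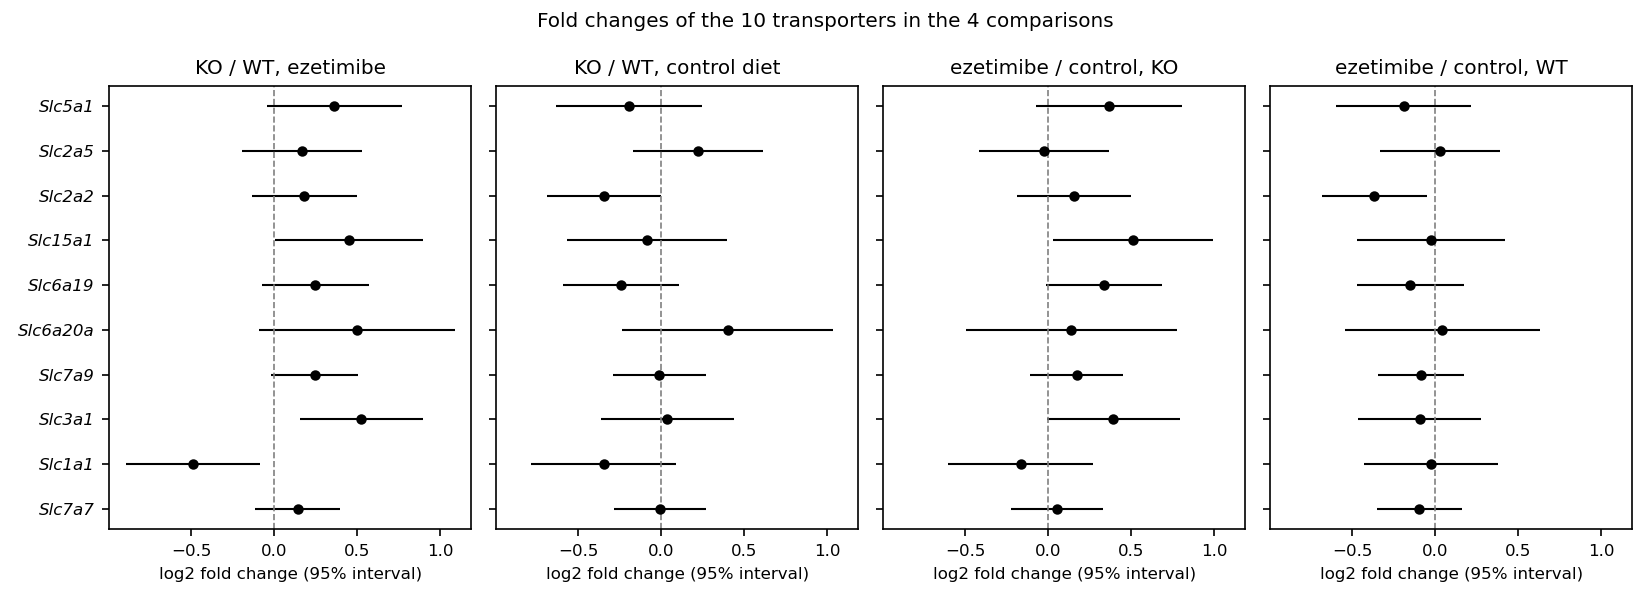
Log2 fold change of each transporter with its 95% interval (horizontal axis, 1 row per gene) in 4 comparisons: KO over WT on ezetimibe, KO over WT on the control diet, ezetimibe over control diet in KO mice, and ezetimibe over control diet in WT mice. On ezetimibe 9 of 10 genes are to the right of 0, of which Slc7a7 turns with quantile scaling or scaling to library totals, and Slc1a1, at -0.49, is to the left. None passed the adjusted test in any panel.

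As a group, the members gave 0 calls in KO against WT on ezetimibe, where the test called 1 of 14299 genes (0.00699%). Of the 10, 9 had a positive log2 fold change (8 with quantile scaling or scaling to library totals), with a median of 0.25, beside a median of -0.0018 and 49.7% positive over all genes tested. At an unadjusted p under 0.05 there were 3 members (Slc15a1, Slc3a1 and Slc1a1), beside 16.4% of all genes. By edgeR there were 2, by limma-voom 2 and by DESeq2 3, with 0 called by any of them after adjustment. The direction depended in part on scaling: with libraries scaled to their totals, which moved the median of all genes to -0.14, Slc3a1 was at 0.38 and Slc1a1 at -0.64. Slc7a7 was then at -0.0029, and with quantile scaling at -0.05.

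Other features of these libraries differed in the same comparison. The summed level of the 12 brush border and enterocyte markers was 1002830 to 1189560 normalised counts in KO mice on ezetimibe, against 793951 to 966169 in WT mice on ezetimibe. All 12 markers had a positive log2 fold change, with a median of 0.31 and a smallest value of 0.06. Scaling libraries to their totals moved the median of all genes to -0.14, and the signs of the markers under it were not examined. Of the markers, limma called 0, and 5 had an unadjusted p under 0.05, beside 16.4% of all genes. EdgeR and limma-voom called 0 and DESeq2 1 (0.545% of all genes), Alpi, an alkaline phosphatase of the brush border. The total of all normalised counts was 15643200 to 17652700 in KO and 14199400 to 15465400 in WT mice on ezetimibe. Neither pair of ranges overlapped. Nor did the sums of the 7 goblet cell markers (164943 to 224509 in KO and 134495 to 151013 in WT mice), the 8 markers of the distal small intestine (21788 to 24103 in KO and 15949 to 20368 in WT mice), the 10 markers of dividing cells (1862 to 2351 in KO and 2393 to 3468 in WT mice) and the 7 myeloid markers (201 to 456 in KO and 463 to 756 in WT mice). Among single genes, 9.93% of all tested did not overlap in this comparison. The mean log2 levels of the myeloid markers did overlap, at 4.29 to 5.67 in KO and 5.45 to 6.10 in WT mice. The sums of markers were not recomputed with libraries scaled to their totals. Of the goblet cell markers 5 had a positive and 2 a negative log2 fold change, with a median of 0.05. Of the distal markers 7 were positive and 1 negative, and the markers of dividing cells and the myeloid markers were all negative. All 9 markers of T and NK cells had a negative log2 fold change, 7 of them at an unadjusted p under 0.05, beside 16.4% of all genes. Their sums were 4718 to 6471 in KO and 6389 to 8794 in WT mice. None of the markers in these lists was called by limma, and their part in the members' values was not tested. In bulk tissue, fewer cells of a type and less RNA per cell cannot be told apart.

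On the control diet, KO against WT gave 0 calls among the 10 members, beside 53 of 14299 genes (0.371%). Of the 10, 3 had a positive log2 fold change and 7 a negative one (2 and 8 with quantile scaling or scaling to library totals, where Slc3a1 turned), with a median of -0.05, beside a median of -0.0054 over all genes. Only Slc2a2 had an unadjusted p under 0.05, beside 14.7% of all genes, by limma, edgeR, limma-voom and DESeq2 alike. The largest positive value was 0.40 for Slc6a20a and the largest negative one -0.35 for Slc1a1. Here the summed enterocyte markers overlapped between groups, with 988508 to 1145650 normalised counts in KO and 788994 to 1163430 in WT mice. Of the 12, DESeq2 called 1, Fabp1, at 0.58 (adjusted p = 0.0330), beside 452 of all 14299 genes. The sums of the 8 Paneth cell markers did not overlap, at 10314 to 17169 in KO and 19444 to 64985 in WT mice. Among single genes, 12.2% of all tested did not overlap here. The 10 markers of dividing cells summed to 1765 to 2592 in KO and 2430 to 4833 in WT mice. All 9 markers of T and NK cells had a negative log2 fold change here too, 8 of them at an unadjusted p under 0.05. Limma called 0 of these 9. Of the dividing cell markers 3 were called lower in KO mice (Aspm, Bub1 and Mki67). The part of all these cell markers in the members' values was not tested.

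Ezetimibe against control diet gave 0 calls among the members in either genotype. In KO mice 104 of 14299 genes were called (0.727%), and 8 of the 10 members had a positive log2 fold change (7 with quantile scaling or scaling to library totals, where Slc7a7 turned), with a median of 0.16, beside 0.0056 over all genes. In no member were all libraries of one diet above those of the other, beside 18% of all genes. Slc15a1 was the 1 member with an unadjusted p under 0.05, beside 22.9% of all genes, while edgeR and DESeq2 gave 3 each (Slc15a1, Slc6a19 and Slc3a1) and limma-voom 1. None of these tools called a member after adjustment. In the same KO mice the 7 myeloid markers summed to 201 to 456 normalised counts on ezetimibe and 656 to 852 on the control diet, without overlap, and had a median log2 fold change of -1.49 (5 at an unadjusted p under 0.05). All 9 markers of T and NK cells had a positive one, 7 of them at an unadjusted p under 0.05, with sums of 4718 to 6471 on ezetimibe and 3439 to 4595 on the control diet. The same 9 markers were all positive in WT mice, 5 of them at an unadjusted p under 0.05. Their median was 0.46 in WT and 0.54 in KO mice. All 8 Paneth cell markers were negative in WT mice, 6 of them at an unadjusted p under 0.05. In KO mice 7 of those 8 were negative, 0 of them at that level. The myeloid sums overlapped in WT mice, at 463 to 756 on ezetimibe and 434 to 1187 on the control diet. None of these markers was called by limma, and their part in the members' values was not tested. In WT mice 31 of 14299 genes were called (0.217%), and 2 of the 10 members had a positive log2 fold change (3 with quantile scaling, where Slc15a1 turned), with a median of -0.09, beside -0.0096 over all genes, and no member was without overlap, beside 3.47% of all genes. Slc2a2 was the 1 member with an unadjusted p under 0.05 by limma and by each count tool, beside 5.08% of all genes by limma. These comparisons share their groups with the genotype comparisons, so the values are not independent of those above.

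The genotype effect on ezetimibe minus that on the control diet was positive for 8 of 10 members (7 with library totals, where Slc6a20a turned), with a median of 0.37, beside 0.0075 over all genes. The largest were 0.56 for Slc5a1, 0.54 for Slc15a1, 0.52 for Slc2a2, 0.49 for Slc6a19 and 0.49 for Slc3a1 on the log2 scale, with limma adjusted p from 0.681 to 0.702. No member and no gene of the whole table was called (0% of 14299). At an unadjusted p under 0.05 there were 2 members, Slc2a2 and Slc6a19, by limma, edgeR, limma-voom and DESeq2, beside 7.02% of all genes by limma.

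The members were also compared with one another from library to library. Over the 15 libraries, Pearson's r between log2 levels was positive in 34 of the 45 pairs, with a median of 0.51, and 23 pairs had a permutation p under 0.05 after Benjamini-Hochberg adjustment over the 45 pairs. These 23 pairs had an r of at least 0.59 in size, a size reached by 11.2% of all pairs of the 14299 genes tested, of which 49.8% were positive with a median r of -0.0022. That background holds genes with few reads too. All levels of a library share its scaling, which may enter every r. The highest r was between the paired chains Slc3a1 and Slc7a9, at 0.90 (Spearman's rho 0.81, permutation p = 3e-05, adjusted p = 0.00135). Without the 2 libraries farthest from the median of Slc7a9 it was 0.79, and on deviations from the group means it was 0.88. Slc6a19 and Slc7a7, carriers of opposite membranes, had r = 0.83 (rho 0.81, permutation adjusted p = 0.00225), and 0.91 on deviations from the group means. Slc5a1 and Slc15a1 had r = 0.82 (rho 0.84, permutation adjusted p = 0.00324), and 0.79 on deviations from the group means.

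Slc1a1 and Slc6a20a stood outside this pattern. All 9 pairs with Slc1a1 had a negative r, from -0.80 with Slc3a1 to -0.29 with Slc2a2, and 5 of them had an adjusted permutation p under 0.05. With Slc3a1, rho was -0.75 and the permutation adjusted p 0.00341, and r was -0.63 without the 2 libraries farthest from the median of Slc3a1. With Slc2a5, the fructose carrier, r was -0.77 (rho -0.77, permutation adjusted p = 0.00411). The 9 pairs with Slc6a20a had r from -0.31 to 0.51, and 0 of them had an adjusted p under 0.05. Among the other 8 members, chosen after the values were seen, all 28 pairs were positive, from 0.28 to 0.90.

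**Figure D3:**
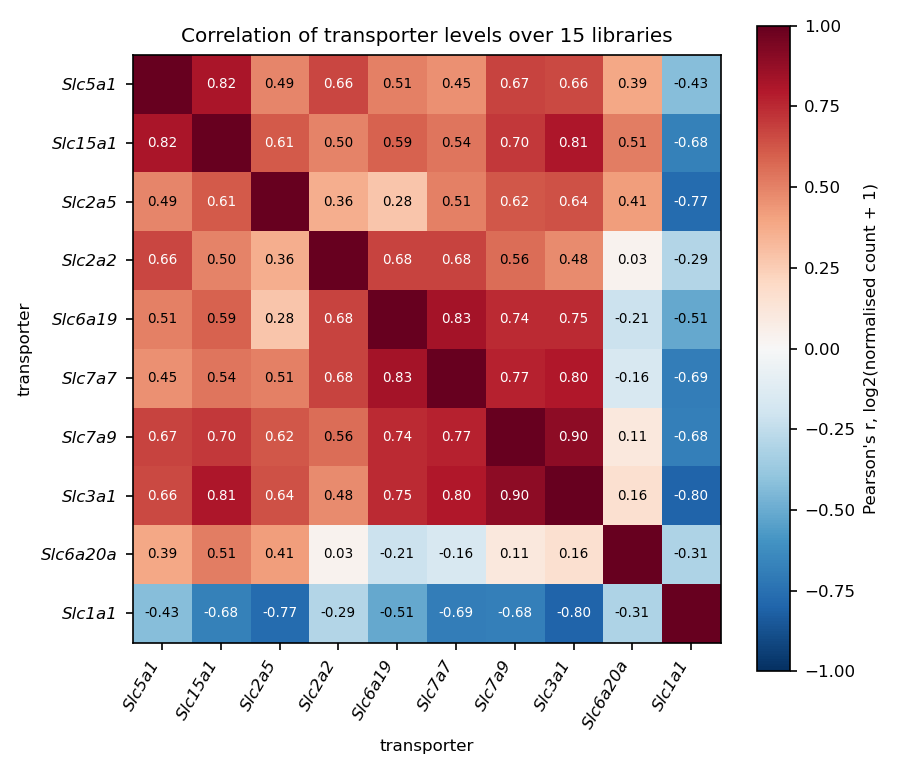
Pearson's r (colour and printed number) between the log2 levels of each pair of the 10 transporters over the 15 libraries. The block of 8 members at the upper left is positive throughout, with 0.90 for Slc3a1 and Slc7a9, while the Slc1a1 row is negative throughout and the Slc6a20a row lies between -0.31 and 0.51.

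The members were set against measures of cell content in the same libraries, in 60 further relations whose p-values were adjusted together. The mean log2 level of the brush border and enterocyte markers had a positive r with 9 of the 10 members, up to 0.87 for Slc3a1 (rho 0.89, permutation adjusted p = 6e-04), and a negative r with Slc1a1, at -0.83 (rho -0.85, permutation adjusted p = 0.00168). Without the 2 libraries farthest from the median of the marker level these were 0.84 for Slc3a1 and -0.78 for Slc1a1. Slc6a20a, at 0.43, was the 1 member whose adjusted permutation p did not pass 0.05. The other 9 had an r of at least 0.59 in size, as did 27.7% of all genes tested. On deviations from the group means, r was 0.80 for Slc3a1 and -0.76 for Slc1a1. The marker list holds no member but does hold other brush border genes of the same cells.

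Markers of crypt cells gave the opposite signs. With the 6 stem cell markers r was negative for 9 members, to -0.78 for Slc2a5, and 0.79 for Slc1a1 (rho 0.79, permutation adjusted p = 0.00313). With the 8 Paneth cell markers r was 0.78 for Slc1a1 and between -0.69 and -0.14 for the others. With the total of normalised counts r ran from -0.89 for Slc1a1 to 0.91 for Slc3a1, and 8 members passed an adjusted permutation p of 0.05, each with an r of at least 0.65 in size, as had 23.8% of all genes tested. With the number of recovered reads r ran from -0.37 to 0.51 and 0 members passed. The part of cell content or of the scaling in these values was not tested.

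**Figure D4:**
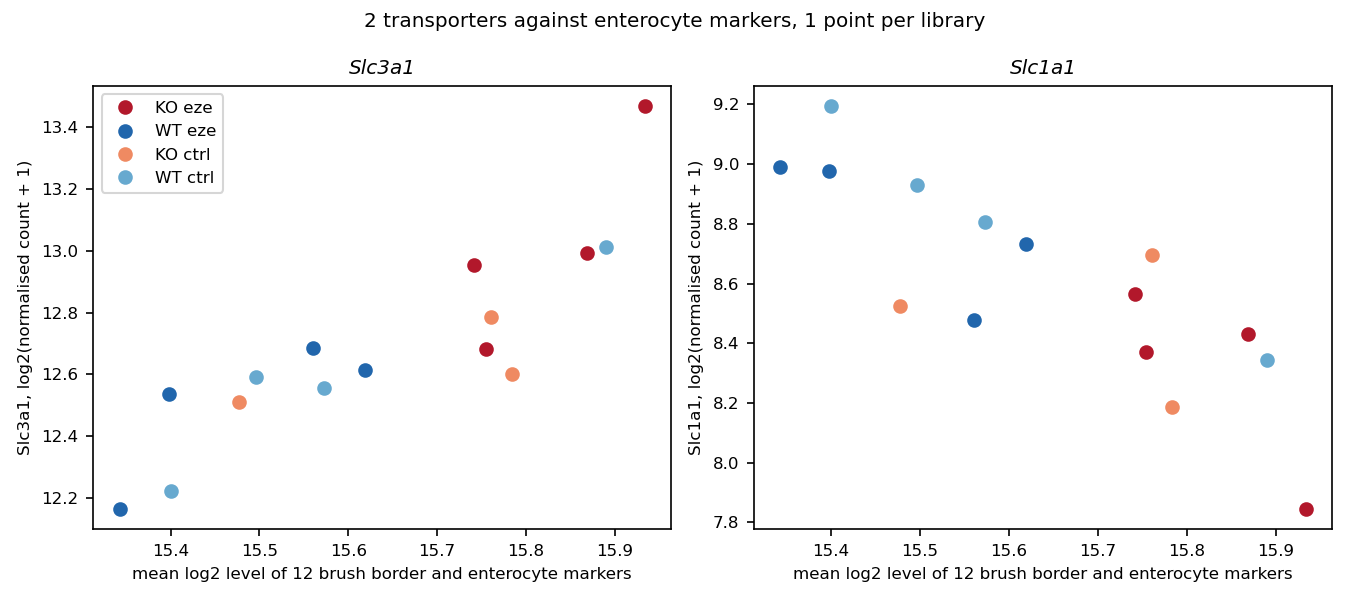
Log2 level of Slc3a1 (left) and Slc1a1 (right) on the vertical axis against the mean log2 level of 12 brush border and enterocyte markers on the horizontal axis, with 1 point per library coloured by group. Slc3a1 is higher where the markers are higher (r = 0.87) and Slc1a1 is lower (r = -0.83). Replicate 3 of the KO mice on ezetimibe is the extreme point of both panels.

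The same few libraries held the extremes of several members. Replicate 3 of the KO mice on ezetimibe was highest for 5 members (Slc2a5, Slc15a1, Slc6a19, Slc7a9 and Slc3a1) and lowest for Slc1a1. Replicate 2 of the WT mice on ezetimibe was lowest for 4 (Slc2a2, Slc7a9, Slc3a1 and Slc7a7). Without replicate 3 of the KO mice on ezetimibe, the log2 fold changes of KO over WT on ezetimibe were those given above. They were 0.38 for Slc3a1, 0.35 for Slc15a1 and -0.34 for Slc1a1. Leaving out replicate 4 of the WT mice on the control diet as well cannot change them, since its group is not compared. None of these fold changes was called.

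The genes most like each member, by Pearson's r of log2 levels over the 15 libraries among all tested genes outside the members, are given as description only. For Slc5a1 they were Mertk at 0.92, Slc35g1 and Pon3. For Slc2a5 they were Idh1 at 0.93, Ugp2 and Aldh1a1, and for Slc2a2 they were Mgam at 0.89, a brush border enzyme that releases glucose from starch, Mapk6 and Wee1. For Slc15a1 they were Gfod1 at 0.95, Clrn3 and Rab8a, and for Slc6a19 Tnip1 at 0.94, Entpd8 and Cyth1. For Slc3a1 they were Dync1i2 at 0.96, Slc27a4, a fatty acid transport protein, and Pdcd6ip. Prepl, whose exons overlap those of Slc3a1, came next at 0.94 and was named after its value was seen. For Slc7a9 they were Uty at 0.94, Numb and Dgka, for Slc7a7 Krt8-ps at 0.93, Sulf2 and Cs, and for Slc1a1 Zfp704 at 0.94, Ammecr1 and Pycard. For Slc6a20a they were Rap2a at 0.92, Hgsnat and, at 0.87, the paralog Slc6a20b.

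The rest of the nutrient transport pathway was described by 6 lists. They name 58 genes, and the table held 57 of them, 53 with enough reads to be tested. By limma, edgeR and limma-voom none of the 53 was called in any of the 5 comparisons. At an unadjusted p under 0.05 limma gave 7 of 53 in KO against WT on ezetimibe (16.4% of all genes) and 8 on the control diet (14.7%). It gave 14 with ezetimibe in KO mice (22.9% of all genes), 1 with ezetimibe in WT mice (5.08%) and 4 for the difference between diets (7.02%). DESeq2 called 5 of the 53 with ezetimibe in KO mice, a share close to the 8.08% of all genes that it called there, and 0 in the other comparisons. In KO against WT on ezetimibe 38 of 53 had a positive log2 fold change, with a median of 0.13. In ezetimibe against control diet in KO mice 36 of 53 were positive, with a median of 0.14. Scaling libraries to their totals moved the median of all genes to -0.14 in the former comparison and -0.08 in the latter. The signs of the 53 genes under that scaling were not examined. In KO against WT on the control diet 24 of 53 were positive (median -0.03), and in ezetimibe against control diet in WT mice 24 of 53 (median -0.03). Of 9 other sugar transporters 8 were positive in KO against WT on ezetimibe. The smallest p among them was for Slc2a8, an intracellular sugar carrier, at 0.54 (limma adjusted p = 0.223).

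Among the other amino acid carriers of the brush border, Slc1a5, which exchanges glutamine and other neutral amino acids, was at -0.48 in KO against WT on ezetimibe (limma adjusted p = 0.286) and at -0.65 on the control diet (limma adjusted p = 0.189). It did not pass the test by any tool.

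The 5 pathway genes that DESeq2 called with ezetimibe in KO mice were Slc9a3, Slc5a9, Hnf4a, Klf4 and Fbp1, where limma gave adjusted p from 0.0774 to 0.103. Slc9a3, the sodium and proton exchanger that helps keep the proton gradient used by SLC15A1, was at 0.66 by limma (adjusted p = 0.0892) and 0.65 by DESeq2 (adjusted p = 0.0358). Fbp1, an enzyme of glucose synthesis, was at -0.77 by limma (adjusted p = 0.103) and -0.79 by DESeq2 (adjusted p = 0.0408). In WT mice limma gave 0.48 for Slc9a3 with ezetimibe (adjusted p = 0.837). With ezetimibe in KO mice DESeq2 also called 4 of the 12 enterocyte markers, Lct and Treh higher and Fabp1 and Apoa1 lower on ezetimibe.

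The authors' deposited tables of KO against WT list 424 genes for the control diet and 72 for ezetimibe. They list 0 of the 10 members and 0 of the pathway genes.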

How the data were processed

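RNA from frozen mouse distal jejunum was sequenced in 15 libraries, per the labels' protocols. The mm10 build, STAR 2.6.0c, FastQC and DESeq2 were used, per the submitters' processing notes. The read counter, the annotation and the use of strand are named in none of the sources used here. The authors deposited a signal, DESeq2-normalised counts of 26844 genes, per the file headers. Values were whole multiples of what 1 read is worth in 100% of cases in each library (tolerance 0.01), which gave the read counts. The authors also deposited a table of KO against WT for each diet, whose columns, per the file headers, are a mean signal, a log2 fold change and its SE, a score (Wald statistic), a p-value, an adjusted p-value and a linear ratio of KO to WT.

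Each library was taken as 1 mouse, as far as the labels tell, and otherwise p-values measure the spread between these libraries. The 14299 genes that reached 10 normalised counts in 3 or more libraries were tested with limma 3.58.1 and a mean-variance trend on log2(value + 1), in 1 fit of all 15 libraries, with Benjamini-Hochberg adjustment over all genes tested and a threshold of 0.05. Fold changes on this scale understate those of low genes. Correlations have two-sided permutation p-values. Levels were divided by the exon length of GENCODE M21, in which 26825 identifiers were found (99.93%). Scripts were tested on simulated data. Alternatives were other pseudocounts, filters and scalings, the compared groups alone, robust moderation, the replicate number as a block, edgeR 4.0.16, limma-voom and DESeq2 1.42.0 on the recovered reads in R 4.3.3, and each library left out in turn. Scaling to library totals and leaving out both ends of the first component were added after the data were seen. The members and lists were chosen with earlier results of these data known. Of each pathway list the text names genes among the 3 with the smallest p of a comparison, and for each member the 3 most correlated genes. The genes that DESeq2 called were named after their values were seen. Figures were drawn with matplotlib 3.10.9.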

Additional observations from a re-analysis of the deposited data

Results flagged for a closer look

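Dixon's test was applied to 42 groups of 4 libraries, those of the 10 members and of Lct, Fabp6, Gramd1b and Gramd1c, and it marks about 1 in 20 groups by chance. No member had a library far from its group by this test. In replicate 3 of the KO mice on ezetimibe, Fabp6 was at 2535 normalised counts, against 107 to 321 in the other 3 libraries of the group. In the same library Gramd1b was at 2086 normalised counts, against 1744 to 1763 in the others. It is also the library that was highest for 5 of the members.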

How the results depend on the processing

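The count of members called was 0 in all 5 comparisons under 28 alternatives, and in the 4 comparisons between groups with the compared groups alone, where the difference between diets has no value. The lowest adjusted p of any member was 0.0529, for Slc15a1 with ezetimibe against control diet in KO mice and the replicate number as a block. Of 1440 member fold changes recomputed, 1379 kept their sign and 61 did not, and none of the results that turned was above 0.144 in size (log2). The cause of these turns was not tested.

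KO against WT on the control diet turned for Slc3a1 with quantile scaling (-0.049), the replicate block (-0.0037), both component ends left out (-0.087) and library totals (-0.0087), and on ezetimibe for Slc7a7 with quantile scaling (-0.051) and library totals (-0.0029). Ezetimibe in WT mice turned for Slc15a1 with quantile scaling (0.0090) and, with both component ends left out, for Slc2a5 (-0.13), Slc6a20a (-0.035) and Slc1a1 (0.10). Ezetimibe in KO mice turned for Slc2a5 with the block (0.044), and for Slc7a7 with quantile scaling (-0.020), both ends left out (-0.014) and library totals (-0.031). The difference between diets turned for Slc2a5 with the block (0.014) and both ends left out (0.027), and for Slc6a20a with library totals (-0.0024).

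With 1 library left out, KO against WT on the control diet ran from -0.24 to 0.11 for Slc15a1, -0.12 to 0.069 for Slc7a9, -0.087 to 0.18 for Slc3a1 and -0.068 to 0.087 for Slc7a7. Ezetimibe in WT mice ran from -0.13 to 0.16 for Slc2a5, -0.17 to 0.17 for Slc15a1, -0.076 to 0.31 for Slc6a20a, -0.22 to 0.044 for Slc3a1 and -0.18 to 0.10 for Slc1a1. Ezetimibe in KO mice ran from -0.099 to 0.072 for Slc2a5, -0.098 to 0.33 for Slc6a20a and -0.014 to 0.14 for Slc7a7. The difference between diets ran from -0.18 to 0.10 for Slc2a5, -0.17 to 0.29 for Slc6a20a and -0.29 to 0.014 for Slc1a1.

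The count over all genes moved far more. KO against WT on the control diet called 53 genes (21 higher, 32 lower), and 17 with a pseudocount of 5, 12 with no filter, 5 with quantile scaling (1 higher, 4 lower), 3 with the compared groups alone, 231 with the replicate block, 12 with edgeR, 10 with limma-voom, 452 with DESeq2, 25 with both ends left out, and 3 to 126 with 1 library left out. Library totals gave 8 higher and 41 lower. On ezetimibe it called 1, and 2 with quantile scaling, 3 with the compared groups alone, 6 with the block, 78 with DESeq2, 2 with library totals and 1 to 2 with 1 library left out. Ezetimibe in WT mice called 31, and 54 with the block, 93 with DESeq2 and 17 to 60 with 1 library left out. Ezetimibe in KO mice called 104, and 54 with no filter, 330 with a mean of at least 50, 16 with the compared groups alone, 1915 with the block, 41 with limma-voom, 1155 with DESeq2, 12 with both ends left out, and 5 to 456 with 1 library left out. The difference between diets called 0, and 5 with DESeq2 and 0 to 1 with 1 library left out.

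Libraries with the same replicate number did not all deviate together (r of their deviations from -0.24 to 0.26, with 12 of 14 positive, 8 over 0.1 and 5 in which a library was most like the one with its own number). The labels do not say what a number marks, so the block stands only as an alternative. With 3 or 4 libraries a group, the 95% intervals of the members in the 4 comparisons between groups are 0.5 to 1.3 wide on the log2 scale. Those of the difference between diets are wider, as for Slc6a20a, from -0.77 to 0.96.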
